A study of Mus musculus with 4 samples.

Results

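Fc gamma receptors bind the constant part of IgG and let myeloid cells, NK cells and B cells react to antibody-coated targets. Expression was described here for the mouse genes of the 4 receptors, Fcgr1, Fcgr2b, Fcgr3 and Fcgr4, and of their shared signalling subunit Fcer1g, in CD45-sorted cells of KPC tumors, a mouse pancreatic cancer line grown under the skin of C57BL/6 mice. The genes were chosen by name, not by their values, and were 5 of the 32285 genes in the deposited matrix. Of the 4 single-cell libraries, the first came from Untreated tumors, the second from tumors given STING agonist (ADU-S100, injected into the tumor), the third from tumors of mice given LTbR agonist (the agonistic antibody 4H8, given intraperitoneally) and the fourth from mice given STING and LTbR agonist, called the combination here. Per the paper, STING agonist was given as 1 dose at the start and LTbR agonist as 4 doses. Tumors were collected days after the last dose, so early responses to STING agonist were not sampled. All 4 groups carried the same tumor line, and Fc receptors on the cells were blocked with an antibody before the CD45 sort, whereas the readout was RNA. The paper describes no control antibody for the Untreated and STING agonist groups. Receipt of an antibody and activation of LTbR therefore cannot be told apart here. With 1 library per group and no replicates, no test of a treatment was possible. Every interval below is a 95% interval that covers counting error only.

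Fcgr1 encodes the high-affinity activating receptor, Fcgr3 and Fcgr4 encode activating receptors of lower affinity, and all of them pair with Fcer1g, whose cytoplasmic tail carries an immunoreceptor tyrosine-based activation motif (ITAM). Fcgr2b encodes the inhibitory receptor, whose own tail carries an inhibitory motif (ITIM), and it is known as the Fc gamma receptor of B cells. The balance of activating and inhibitory receptors on macrophages sets how readily IgG triggers phagocytosis and cytokine release, NK cells rely on Fcgr3 for antibody-dependent killing, and Fcer1g also serves other receptors, such as NKp46 on NK cells.

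The coding bases of the motifs that separate the activating from the inhibitory arm are shown first, with the tyrosine codons of each motif in capitals. They were read 5′ to 3′ from the reference transcripts on build GRCm38. Fcer1g lies at chr1:171229572-171234365 on the minus strand, and its motif, which spans an intron within chr1:171229889-171230072, holds 2 tyrosine codons. Fcgr2b lies at chr1:170958617-170976547 on the minus strand. The 42 bases shown for it, at chr1:170961059-170961100 within 1 exon, are its motif with flanking bases on both sides, and hold 1 tyrosine codon.
Fcer1g ITAM: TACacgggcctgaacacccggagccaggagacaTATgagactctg
Fcgr2b ITIM: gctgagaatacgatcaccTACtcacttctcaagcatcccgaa

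Fcgr2b, Fcgr4 (chr1:171018920-171029761, plus strand) and Fcgr3 (chr1:171051174-171064935, minus strand) are neighbours on chromosome 1, whereas Fcgr1 (chr3:96282909-96293969, minus strand) lies on chromosome 3. The whole coding sequences of Fcgr2b and Fcgr3 were 86.7% identical over 782 aligned bases, with an identical run of 129 bases. The other pairs of receptors were 64.1% to 68.6% identical and shared no run over 14 bases. A stretch of 149 coding bases shows the likeness, with the 2 bases that differ in capitals. It was joined over exons from chr1:170966664-170968091 for Fcgr2b and chr1:171054157-171057802 for Fcgr3.
Fcgr2b: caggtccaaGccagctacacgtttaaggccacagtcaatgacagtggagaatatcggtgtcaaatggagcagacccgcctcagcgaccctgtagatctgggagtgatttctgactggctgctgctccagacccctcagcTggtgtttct
Fcgr3: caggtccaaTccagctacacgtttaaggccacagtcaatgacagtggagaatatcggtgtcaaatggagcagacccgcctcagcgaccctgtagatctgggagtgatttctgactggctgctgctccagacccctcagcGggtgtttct
Of all runs of 90 bases in the reference transcripts, 3.59% of those of Fcgr2b and 5.09% of those of Fcgr3 occurred in transcripts of another gene, and none of those of Fcgr1, Fcgr4 or Fcer1g did. Counts of Fcgr2b and Fcgr3 are therefore uncertain where a read lies wholly in the shared part. An antisense gene, Gm38204, overlaps Fcgr2b on the opposite strand, and the small RNA genes Mir6546 and Gm26110 lie within Fcgr3 and Fcgr4.

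After the study's limits on quality, the libraries held 6783 (Untreated), 3748 (STING agonist), 7147 (LTbR agonist) and 5333 (combination) cells with medians of 5750 to 7094 unique molecular identifiers (UMIs, counted RNA molecules) per cell. A UMI of Ptprc, which encodes CD45, was seen in 93.6% to 95.7% of cells. Between 29 and 52 barcode sequences were shared by any pair of libraries, at most 0.956% of a library's cells. Cells were clustered without the Fc receptor genes and clusters were named from marker genes. In at least 25% of the cells of their class, 14 of 16 macrophage, 12 of 12 monocyte, 13 of 14 neutrophil, 12 of 12 NK and 9 of 10 B cell markers were detected. In the order Untreated, STING agonist, LTbR agonist and combination, kept for all lists of 4 values below, there were 2913, 1394, 2826 and 1796 macrophage- or monocyte-like cells, 225, 303, 376 and 69 neutrophil-like cells, 441, 256, 696 and 372 NK-like cells, and 58, 15, 175 and 532 B-like cells. Levels are UMIs of a gene per 1000000 UMIs of the class in a library (CPM). T-like cells, which mostly lack these receptors, served as the comparison. Part of their UMIs came from a small T-like cluster led by Stmn1, Pclaf and Top2a. In Untreated its 63 of 1770 cells held 79 of 192 Fcgr2b, 50 of 124 Fcgr3 and 21 of 40 Fcgr4 UMIs. The T-like level is thus not a measure of free RNA alone.

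Of the named classes, macrophage-like cells had the highest level of each of the 5 genes in the Untreated library, and each class had its own combination of members. Fcgr1 was at 428 CPM (interval 418 to 438) in macrophage-like and 411 CPM (398 to 424) in monocyte-like cells, which overlapped, then at 128 CPM in dendritic-like, 91.4 in neutrophil-like and 46.1 in B-like cells. Fcgr1 was near nothing in NK-like cells, with 7 UMIs in all, below the 5.81 CPM of T-like cells.

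Fcgr3 followed the order macrophage-like (862 CPM), monocyte-like (766), neutrophil-like (501), dendritic-like (107), NK-like (47.1), B-like (43.4) and T-like (12.6). The intervals of NK-like (38.6 to 56.8) and B-like (24.8 to 70.4) overlapped, and the others did not. Fcgr4 was at 479 CPM in macrophage-like cells, more than in monocyte-like (219.6, interval 210.2 to 229) and neutrophil-like cells (206, interval 172 to 244), whose intervals overlapped. It was at 68.4 CPM in dendritic-like cells, 32.5 in B-like cells and 4.08 in T-like cells, and had 3 UMIs in NK-like cells.

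Fcgr2b was at 1418 CPM in macrophage-like and 1019 CPM in monocyte-like cells. Neutrophil-like (282), dendritic-like (211) and B-like cells (206) came next, and the interval of B-like cells (162 to 258) overlapped those of both other classes. In NK-like cells it was at 11.8 CPM (7.75 to 17.1), at or below the 19.6 CPM (16.9 to 22.6) of T-like cells. The largest T-like cluster, led by Cd8a, was at 6.05 CPM (4.08 to 8.64). Whether free RNA gave the UMIs of NK-like cells was not tested. Fcer1g was at 4089, 3256, 2709, 1826, 1222, 385 and 124 CPM in macrophage-like, monocyte-like, neutrophil-like, NK-like, dendritic-like, B-like and T-like cells, with no overlap between neighbours in this order.

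**Figure D1:**
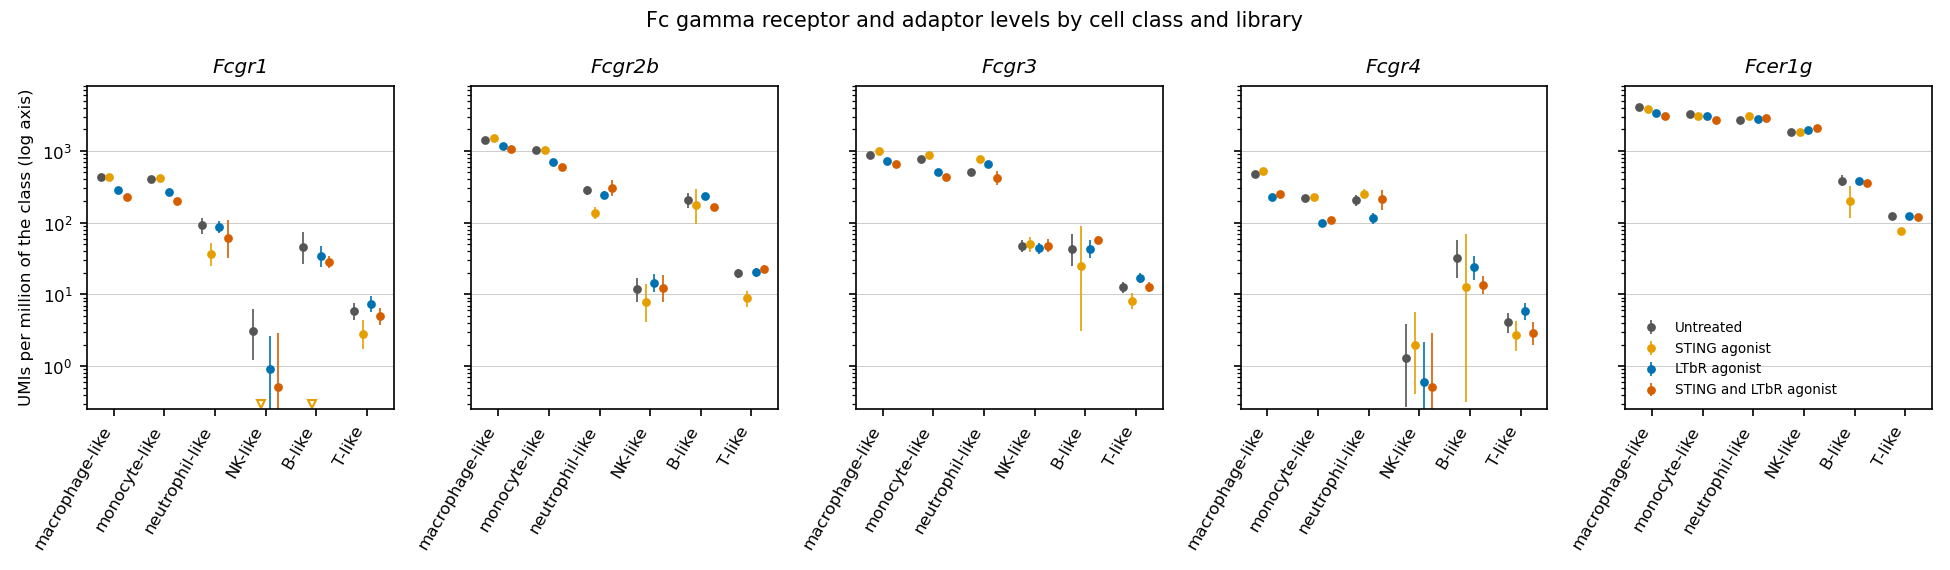
Level of each gene (CPM, log axis) in 6 cell classes and the 4 libraries, with exact Poisson 95% intervals; open triangles mark 0 UMIs. Fcer1g runs from 4089 in macrophage-like to 124 in T-like cells of the Untreated library, and Fcgr1 and Fcgr4 are near 0 in NK-like cells.

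In macrophage- or monocyte-like cells as a joint class, all 5 genes were lower in the LTbR agonist and combination libraries than in the Untreated library, and the activating receptors Fcgr1 and Fcgr4 were lowest relative to it. After STING agonist alone, no member differed from Untreated by 1.5-fold at this late time point. A gene is called here when it differs by at least 1.5-fold on the scale of CPM + 10 and has at least 50 UMIs in 1 of the libraries compared. Over all genes the rule called 0.153% higher and 0.0765% lower after STING agonist, 0.995% higher and 0.6% lower after LTbR agonist, and 1.78% higher and 1.1% lower after the combination.

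Fcgr4, the activating receptor found on myeloid cells, was at 386, 418, 177 and 184 CPM. Both libraries with LTbR agonist were low and both without it were high, and the pairs did not overlap. The log2 ratio to Untreated was -1.08 (interval -1.15 to -1.01) after LTbR agonist and -1.03 (-1.11 to -0.95) after the combination, and the combination differed from LTbR agonist alone by 0.05 (-0.04 to 0.15). After STING agonist it was 0.11 (0.05 to 0.17).

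Fcgr1, the high-affinity receptor, was at 422, 429.7, 279 and 216 CPM. It was lowest in the combination, with a log2 ratio of -0.93 (-1.01 to -0.86), against -0.58 (-0.64 to -0.52) after LTbR agonist, just short of 1.5-fold. The combination was 0.36 lower on the log2 scale than LTbR agonist alone (log2 ratio -0.36, interval -0.44 to -0.27), so that the steps between libraries differed from those of Fcgr4. Fcgr3, the remaining activating receptor, was at 828, 944, 634 and 554 CPM. Its log2 ratio was 0.19 (0.15 to 0.23), -0.38 (-0.42 to -0.34) and -0.57 (-0.62 to -0.52) after STING agonist, LTbR agonist and the combination, and none of these passed 1.5-fold.

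The inhibitory Fcgr2b was at 1275, 1323, 995 and 839 CPM, with log2 ratios of 0.05 (0.02 to 0.09), -0.36 (-0.39 to -0.32) and -0.60 (-0.64 to -0.56). The last of these was just past 1.5-fold. Fcer1g, the adaptor, was at 3790.5, 3551, 3199.5 and 2908 CPM, and its log2 ratio of -0.38 (-0.40 to -0.36) after the combination was the smallest in size of the 5. Thus 1 of 5 members (Fcgr4) was called lower after LTbR agonist and 3 of 5 (Fcgr1, Fcgr2b and Fcgr4) after the combination, none was called higher, and the members' median log2 ratio after the combination was -0.60 against 0.02 over all genes. All 3 comparisons share the Untreated library.

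Marker levels of the class and the mitochondrial share of the libraries moved with this split. The summed level of the 16 macrophage markers in the class was 10311, 12076, 7903 and 8355 CPM, and that of the 12 monocyte markers 7148, 6267, 5603 and 5807 CPM, with all markers detected in each library. The share of barcodes over the mitochondrial limit was 2.71%, 2.68%, 5.99% and 6.78%. A macrophage-like cluster led by the heat-shock genes Hspa1b and Hspa1a held 3.47%, 3.30%, 8.78% and 2.62% of the class, and so was high after LTbR agonist alone. Without that cluster and one of low UMI counts, the log2 ratio of Fcgr4 was -1.05 after LTbR agonist and -1.07 after the combination, and that of Fcgr1 -0.95 after the combination. The part of the marker levels and of the mitochondrial share in the result was not tested.

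**Figure D2:**
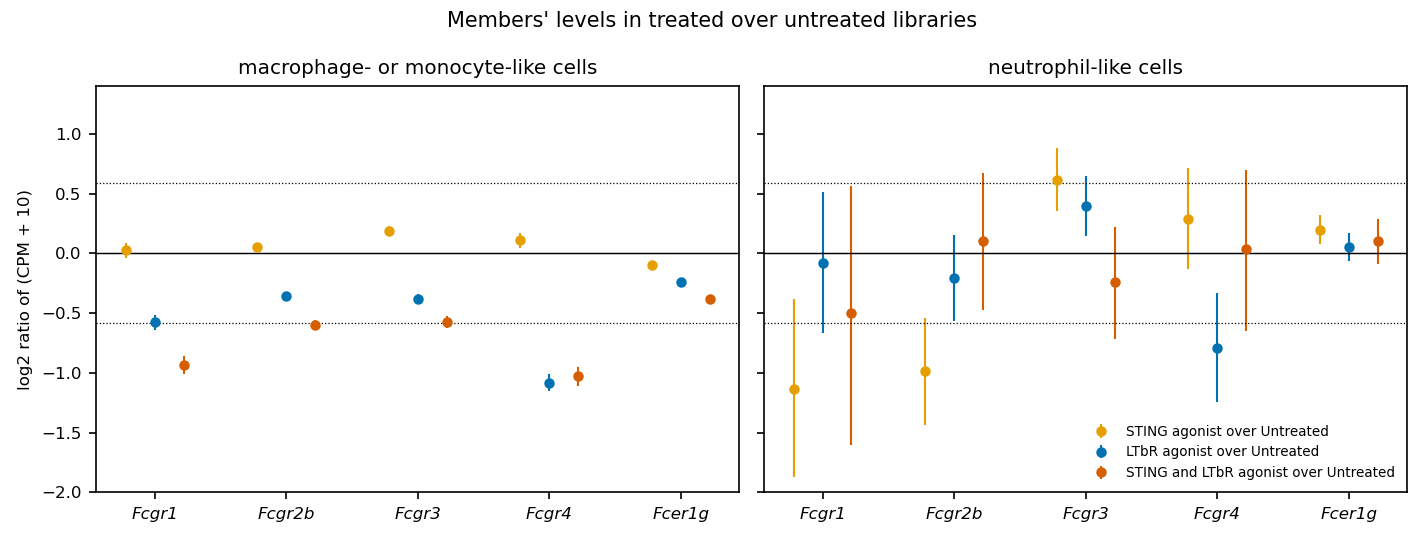
log2 ratio of (CPM + 10) of each treated library over Untreated in macrophage- or monocyte-like (left) and neutrophil-like cells (right), with 95% counting intervals; dotted lines mark 1.5-fold. In the left panel Fcgr4 lies at -1.08 and -1.03 in the libraries with LTbR agonist, and in the right panel the intervals are wide.

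The shares of cells with a UMI moved with the levels. In macrophage- or monocyte-like cells a UMI of Fcgr4 was seen in 71.9%, 73.9%, 50.2% and 48.3% of cells, and of Fcgr1 in 79.4%, 80.3%, 63.5% and 53.9%. In T-like cells, the corresponding shares were at most 1.43% for Fcgr4 and 1.69% for Fcgr1. The median depth was 8549, 10306, 7763 and 7402 UMIs in the macrophage- or monocyte-like cells and 4437.5, 4736, 4131.5 and 5014.5 in T-like cells. With each cell thinned to 1000 UMIs, and 42 to 128 shallower cells per library left out, the shares were 27.6%, 26.2%, 14.2% and 15.1% for Fcgr4 and 30.4%, 32.3%, 22.4% and 15.4% for Fcgr1. The same order of libraries with and without LTbR agonist was seen in both. Fcer1g had a UMI in 93.8% to 95.8% of cells, and in 86.1% to 90.3% once thinned.

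The class is a mixture whose make-up also differed between libraries. A cluster led by C1qb, C1qa and C1qc, complement genes of tissue macrophages, held 48.6%, 47.7%, 30.1% and 23.6% of the macrophage- or monocyte-like cells. A macrophage-like cluster led by Retnla, Ccl8 and Mrc1 held 2.64%, 2.65%, 8.95% and 17.6%. A monocyte-like cluster led by Ace, Adgre4 and Ear2 held 1.24%, 1.00%, 4.42% and 8.46%, and one led by Gm9733, Plcb1 and Hp held 7.42%, 8.61%, 18.1% and 16.8%.

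Fcgr4 was lower with LTbR agonist within the larger clusters too. In the C1qb cluster it was at 489, 552, 242 and 265 CPM, and in the monocyte-like cluster led by Tgm2, Thbs1 and Cxcl10 at 275, 279, 133 and 156 CPM. In the Gm9733 cluster it was at 78.2, 80.5, 48.1 and 51.7 CPM. The smaller Retnla cluster, with 77, 37, 253 and 316 cells, had it at 537, 376, 275 and 209 CPM. STING agonist alone was thus also below Untreated there. Across the 8 macrophage- and monocyte-like clusters, the interval of the log2 ratio lay below 0 in 6 of 8 after LTbR agonist and in 4 of 8 after the combination, and above 0 in none. After STING agonist it lay above 0 in 2 and below 0 in 2 of the 7 clusters compared. In the Ace cluster, the log2 ratio was 0.65 (-0.23 to 1.57) after LTbR agonist and -0.10 (-1.01 to 0.85) after the combination, on few cells.

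Fcgr1 was at 446, 452, 330.4 and 279 CPM in the C1qb cluster, at 521, 532, 425 and 311 CPM in the Tgm2 cluster and at 299, 249.9, 191 and 138 CPM in the Retnla cluster. Its interval lay below 0 in 4 of 8 clusters after either LTbR agonist or the combination. Averaged within clusters with fixed weights, the log2 ratios after the combination were -0.70 for Fcgr4, -0.55 for Fcgr1, -0.31 for Fcgr2b, -0.41 for Fcgr3 and -0.24 for Fcer1g. With the make-up held fixed in this way, Fcgr4 alone stayed past 1.5-fold, where 3 members did in the class as a whole. After LTbR agonist, Fcgr4 was at -0.85 by the same average.

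**Figure D3:**
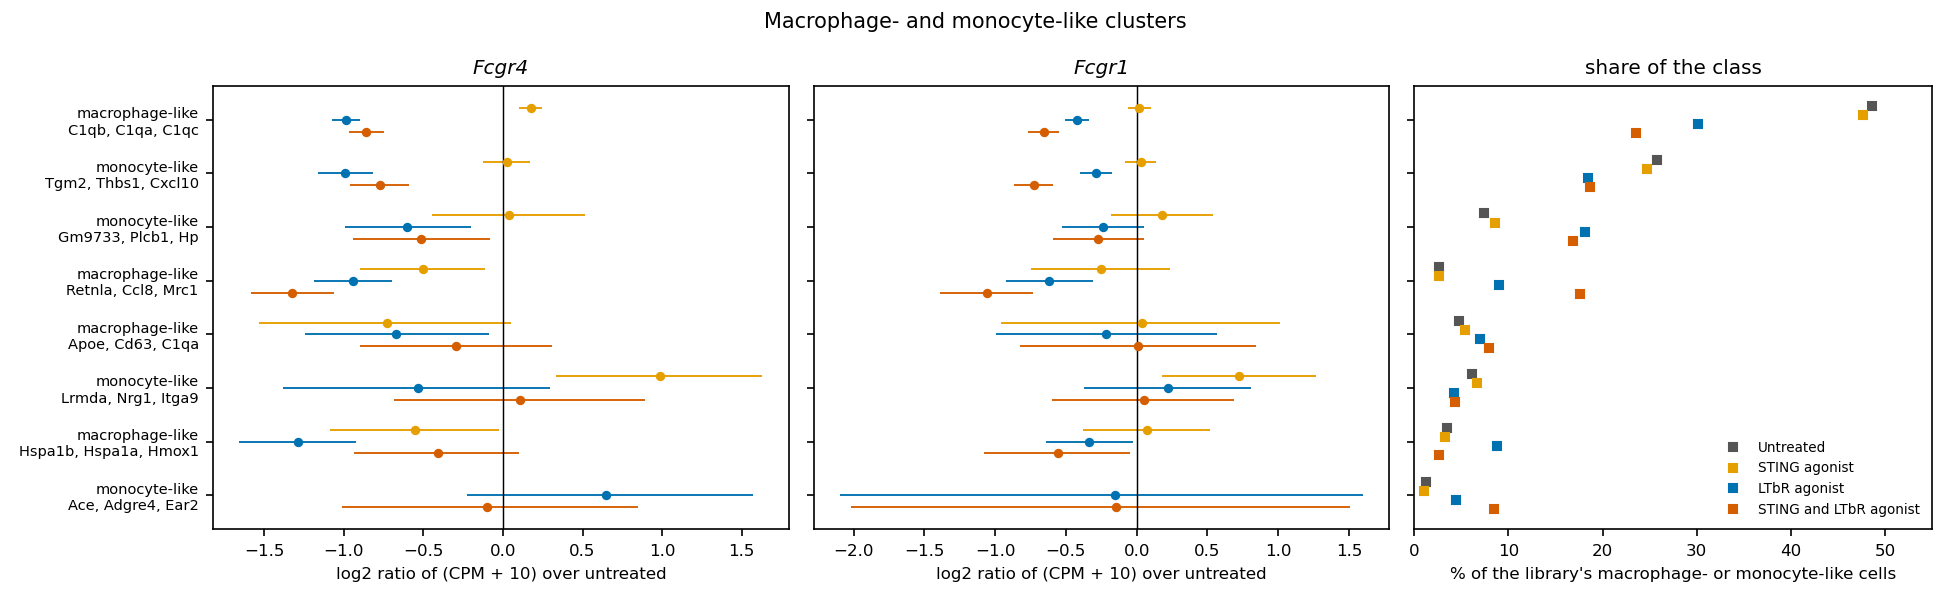
log2 ratio of (CPM + 10) over Untreated of Fcgr4 (left) and Fcgr1 (middle) in each macrophage- and monocyte-like cluster, named by its leading genes, with 95% counting intervals, and the share of the class that each cluster held (right). The C1qb cluster holds 48.6% of the class in Untreated and 23.6% in the combination, and Fcgr4 is at -0.99 and -0.86 in it after LTbR agonist and the combination; no ratio is given for STING agonist in the Ace cluster, which had 14 cells there.

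The clusters also differed in which receptor they carried. Over the 4 libraries, the Ace cluster had Fcgr4 at 169.97 CPM and Fcgr1 at 12.3 CPM, whereas the Tgm2 cluster had Fcgr4 at 219.7 and Fcgr1 at 463 CPM. A monocyte-like cluster led by Lrmda, Nrg1 and Itga9 had 0.54 activating UMIs per Fcgr2b UMI, the lowest of the 8, and Fcer1g at 577 CPM. The Lrmda and Ace clusters had median depths of 3522 and 3511 UMIs, against 8853.5 in the Tgm2 cluster. Neither had a monocyte marker among its 10 leading genes, and the part of depth in these levels was not tested. The highest Fcgr1 level of all 30 clusters, 765 CPM, was in a cluster led by the interferon-induced genes Rsad2, Cmpk2 and Ifit2, which stayed unnamed because its 10 leading genes held 1 marker of another class and none of its own. There Fcgr1 was at 845, 923, 658 and 534 CPM and Fcgr4 at 384, 319.5, 221 and 215 CPM. In dendritic-like cells, which carried lower levels, Fcgr4 was at 68.4, 54.7, 25.5 and 28.1 CPM and Fcgr1 at 128, 142, 78.9 and 58.0 CPM, with the same libraries low.

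The ratio of activating to inhibitory UMIs, (Fcgr1 + Fcgr3 + Fcgr4) over Fcgr2b, needs no scaling to depth. In macrophage- or monocyte-like cells it was 1.28 (1.26 to 1.30), 1.35 (1.33 to 1.38), 1.10 (1.08 to 1.12) and 1.14 (1.11 to 1.16). The libraries with LTbR agonist were low and did not overlap the others. In the 15.2% to 36.0% of these cells left without those that carry at least 2 markers of another class, it was 1.32 (1.25 to 1.4), 1.24 (1.15 to 1.34), 1.10 (1.03 to 1.17) and 1.15 (1.08 to 1.23). STING agonist was then below Untreated, and its interval overlapped those of Untreated and of both libraries with LTbR agonist. The 14 neutrophil markers summed to 1815, 1507, 1661 and 1247 CPM in this class, and the 12 T cell markers to 30.3, 16.5, 55.7 and 42.4 CPM. The filter left out most of the class and is not a measure of purity here. By receptor, the ratio to Fcgr2b was 0.303, 0.316, 0.178 and 0.219 for Fcgr4 and 0.331, 0.325, 0.281 and 0.258 for Fcgr1, but 0.649, 0.714, 0.637 and 0.66 for Fcgr3. Thus Fcgr3 and Fcgr2b were lower by a like factor, and Fcgr4 by a larger one. Per activating UMI there were 2.32, 1.98, 2.93 and 3.05 Fcer1g UMIs, more in the libraries with LTbR agonist.

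Within single cells thinned to 1000 UMIs, 94.7%, 92.7%, 91.7% and 91.4% of the macrophage- or monocyte-like cells with an activating receptor UMI also had one of Fcer1g, against 79.3%, 82.5%, 81.9% and 81.1% of those without. Fcgr2b was seen in 67.8%, 67.7%, 61.1% and 49.8% of cells with an activating UMI and in 52.3%, 53.0%, 40.5% and 36.2% of those without. Each share was higher among the cells with an activating UMI in each library. The cells of a library share its depth and are not replicates.

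**Figure D4:**
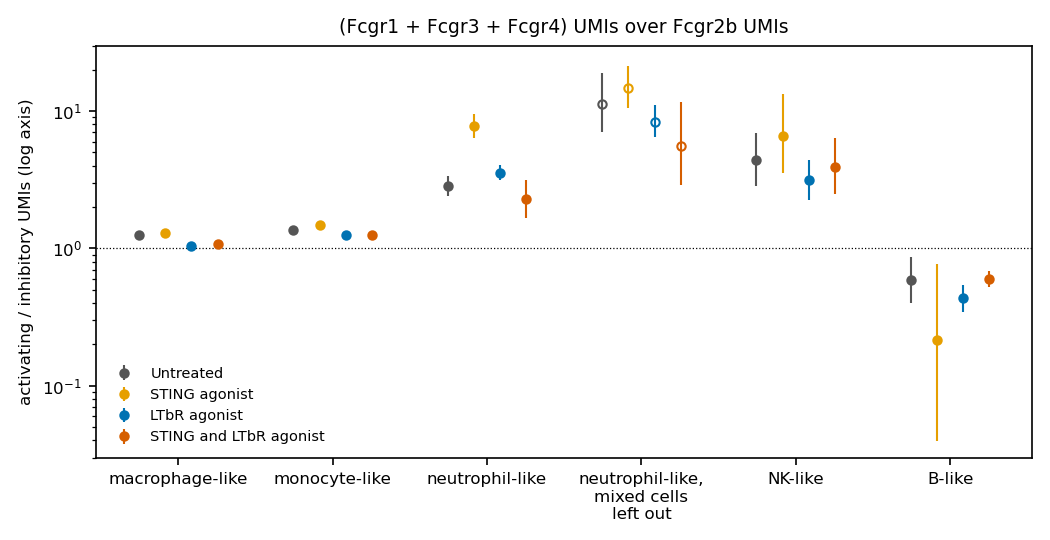
UMIs of Fcgr1, Fcgr3 and Fcgr4 summed over UMIs of Fcgr2b (log axis) by class and library, with exact conditional binomial 95% intervals; open circles give neutrophil-like cells without those that carry markers of another class. Macrophage- and monocyte-like cells lie slightly above 1, B-like cells below 1, and the neutrophil-like values are higher when mixed cells are left out.

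In neutrophil-like cells Fcgr3 was higher after STING agonist than in Untreated, and Fcgr4 was lower after LTbR agonist. Fcgr3 was at 501, 773, 662 and 423 CPM, with a log2 ratio of 0.62 (0.35 to 0.88) after STING agonist, 0.39 (0.14 to 0.65) after LTbR agonist and -0.24 (-0.72 to 0.22) after the combination. A UMI was seen in 51.1%, 70.3%, 67.8% and 50.7% of cells. Fcgr4 was at 206, 254, 115 and 211 CPM, low only after LTbR agonist alone (log2 ratio -0.79, interval -1.25 to -0.33), and its value after the combination rests on 41 UMIs in 69 cells. Fcer1g was at 2709, 3104, 2815 and 2906 CPM, and its largest log2 ratio was 0.20 (0.07 to 0.32), after STING agonist.

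Fcgr2b and Fcgr1 were at 282, 137, 243 and 304 CPM and at 91.4, 36.3, 86.1 and 61.8 CPM in the neutrophil-like cells, with log2 ratios of -0.99 (-1.44 to -0.54) and -1.13 (-1.87 to -0.38) after STING agonist. These UMIs came from few cells. In the Untreated library 10 cells held 77.3% of the Fcgr2b UMIs, and 89.7% of them were in cells with UMIs of at least 2 markers of another class, as were 95% of the Fcgr1 UMIs but 53.2% of the Fcgr3 UMIs. The summed level of the 16 macrophage markers in neutrophil-like cells was 1510.1, 1100.0, 1540 and 1108 CPM, from 14, 15, 16 and 12 detected markers.

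Without the cells that carry markers of another class, 142, 205, 254 and 50 neutrophil-like cells remained. Fcgr2b was then at 63.0, 73.9, 118 and 113 CPM, so that the log2 ratio after STING agonist changed sign to 0.20, and Fcgr1 had 3, 9, 8 and 0 UMIs. The 0 allows up to 3 UMIs in that library. Fcgr3 was at 511, 787, 846 and 368 CPM and Fcgr4 at 189, 289, 127 and 256 CPM, so that the libraries kept their order for Fcgr4. For Fcgr3 the LTbR agonist library then lay above the STING agonist library, and its log2 ratio to Untreated was 0.72, past 1.5-fold, against 0.61 after STING agonist. The ratio of activating to inhibitory UMIs was 2.83, 7.75, 3.55 and 2.29 in all neutrophil-like cells and 11.3 (7.04 to 19.1), 14.8 (10.6 to 21.3), 8.38 (6.45 to 11.0) and 5.55 (2.89 to 11.7) without those cells. The intervals of Untreated and STING agonist were apart in the former and overlapped in the latter.

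By the 1.5-fold rule, Fcgr3 was called higher and Fcgr1 and Fcgr2b lower after STING agonist in neutrophil-like cells, Fcgr4 lower after LTbR agonist, and none after the combination. Fcgr3 was at a log2 ratio of 0.57, just short of 1.5-fold, without the cells whose barcode sequence occurs in more than 1 library, and Fcgr4 after LTbR agonist at -0.54 without the mixed cells. Without the mixed cells, Fcgr3 and Fcgr4 were called higher after STING agonist, and Fcgr2b and Fcgr3 higher after LTbR agonist. Fcgr2b also passed 1.5-fold after the combination, but from 11 UMIs against 19 in Untreated, too few for a call. None was called lower after either single agonist, and Fcgr1 had too few UMIs for a call. The background was wide in these few cells. Over all genes, with the mixed cells kept in, the rule called 4.48% higher and 6.6% lower after STING agonist. It called 7.15% higher and 4.16% lower after LTbR agonist, and 6.54% higher and 10.1% lower after the combination. The background without the mixed cells was not computed.

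NK-like cells carried Fcer1g together with a low level of Fcgr3. Fcer1g was at 1826, 1827, 1923 and 2083 CPM, with a log2 ratio of 0.19 (0.10 to 0.28) after the combination. Its UMIs were seen in 80.3%, 89.8%, 87.4% and 91.9% of NK-like cells, against 14.0%, 9.5%, 12.2% and 12.9% of T-like cells. The median depths of the NK-like cells were 4450, 5245.5, 4185.5 and 4437.5 UMIs. Fcgr3 was at 47.1, 50.02, 43.6 and 47.7 CPM, above the 12.6, 8.22, 17.1 and 12.7 CPM of T-like cells, and the 4 intervals overlapped. After the combination its log2 ratio was 0.02 (-0.46 to 0.49), an interval that covers changes of up to about 1.4-fold either way.

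Fcgr3 had a UMI in 18.6%, 21.9%, 16.5% and 17.7% of NK-like cells and in 2.6% to 4.09% of T-like cells. Fcgr1 and Fcgr4 had at most 7 and 3 UMIs per library. The ratio of activating to inhibitory UMIs, 4.37, 6.58, 3.13 and 3.92, was above the 1.15, 1.56, 1.48 and 0.91 of T-like cells. In NK-like cells it rests on 27, 12, 48 and 24 Fcgr2b UMIs, and the source of the Fcgr3 UMIs was not tested. Among the NK-like clusters, Fcer1g was at 2048 CPM in that led by Gzma and 2084 CPM in that led by Gzmc, but at 304 CPM in a cluster led by Clnk and Itga2. The Clnk cluster had a median depth of 2218 UMIs, against 4634 and 5979.5 in the Gzma and Gzmc clusters. It had none of the 12 NK markers used here among its 10 leading genes, a list without Clnk and Itga2. The part of depth in its Fcer1g level was not tested. Of the 5 members 2 reached 50 UMIs in NK-like cells and none was called, beside 2.11% higher and 1.33% lower of all genes after STING agonist, 0.565% and 0.536% after LTbR agonist and 0.791% and 1.4% after the combination.

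B-like cells had more inhibitory than activating UMIs in all 4 libraries, as had the shallow Lrmda cluster of monocyte-like cells (ratios of 0.44 to 0.61) and a plasmacytoid dendritic-like cluster led by Siglech (0.36 to 0.93). Fcgr2b was at 206, 177, 233 and 166 CPM, from 76, 14, 272 and 599 UMIs, and was seen in 44.8%, 46.7%, 50.3% and 40.4% of cells against 5.31%, 2.36%, 4.69% and 4.79% of T-like cells. Their median depths were 4574.5, 4456, 4662 and 4789 UMIs. The log2 ratio of Fcgr2b was -0.29 (-0.71 to 0.14) after the combination, where B-like cells made up 9.98% of the library against 0.855% in Untreated. This value rests on the processing, as it was -1.07 with each cell thinned to 1000 UMIs, -0.63 over all barcodes and 0.05 with likely doublets left out. Once thinned, a UMI was seen in 15.5%, 15.5% and 10.1% of cells in Untreated, LTbR agonist and the combination, and in 3 of 15 cells in STING agonist. The ratio of activating to inhibitory UMIs was 0.59, 0.21, 0.43 and 0.60.

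The activating receptors in B-like cells were low but above the T-like level. After the combination Fcgr1, Fcgr3 and Fcgr4 were at 28.3, 57.1 and 13.6 CPM, against 5.04, 12.7 and 2.88 CPM in T-like cells, and the 16 macrophage markers summed to 786 against 452 CPM. Whether RNA of other cells accounts for these UMIs was not tested. Fcer1g was at 385, 202, 383 and 355 CPM, and 17.2%, 33.3%, 20.6% and 17.3% of B-like cells had a UMI of it. Of the 4 members tested after the combination none was called, beside 10.8% higher and 3.78% lower of all genes. The STING agonist library, with 15 B-like cells and neutrophil markers at 5258 CPM in them, gave no usable comparison.

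Members varied together across cell clusters. Over the 28 clusters of at least 50 cells and 10851 genes, the genes with the pattern most like Fcgr1 were Ms4a6d (r = 0.981), Cfb (0.980) and Oas1g (0.975). For Fcgr2b they included Tgfbi (0.981) and Pla2g4a (0.964), and for Fcgr3 they were Sdcbp (0.961), Hk3 (0.959) and Emilin2 (0.947). For Fcgr4 they were Pilra (0.970), Pilrb2 (0.961), paired immunoglobulin-like receptors, and Tlr2 (0.956). For Fcer1g they were Tyrobp (0.952), the other ITAM adaptor of these cells, Rnf130 (0.911) and Fcgr3 (0.860). These are Pearson correlations of log2(CPM + 10) across clusters that share libraries, given as a description.

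Few of the genes that carry the signal of these receptors were called. Of 35 genes of Fc receptor signalling, all tested in macrophage- or monocyte-like cells, 1 was called higher and 1 lower after the combination. None was called after either agonist alone. Of all genes, 1.78% were called higher and 1.1% lower after the combination. The shares were 0.153% and 0.0765% after STING agonist, and 0.995% and 0.6% after LTbR agonist. These counts do not set the list apart from all genes. Prkcd, a kinase downstream of phospholipase C, was at 474 against 255 CPM (log2 ratio 0.87, interval 0.80 to 0.94), and Pik3ap1, a phosphoinositide 3-kinase adaptor, at 217 against 333 CPM (-0.59, -0.67 to -0.51). The list's median log2 ratio was 0.03 against 0.02 over all genes. Of 13 other Fc receptor genes 5 were tested, and Fcrlb, an intracellular Fc receptor-like protein, was called lower, at 29.4 against 54.7 CPM (-0.72, -0.88 to -0.55).

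In NK-like cells Gab2, a scaffold adaptor, was the sole member of the signalling list called after the combination, of 28 tested. It was at 71.0 against 130.7 CPM (log2 ratio -0.80, interval -1.17 to -0.43). Of all genes in NK-like cells, 0.791% were called higher and 1.4% lower. In neutrophil-like cells none of 24 tested was called after the combination, beside 6.54% higher and 10.1% lower of all genes. In B-like cells 2 of 32 tested, the T cell signalling genes Cd247 and Lat, were called higher after the combination, beside 10.8% of all genes. Each had 2 UMIs in Untreated, and they were at 22.2 against 5.42 CPM and 19.7 against 5.42 CPM. The 12 T cell markers summed to 252 against 51.5 CPM in these B-like cells.

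The promoters of Fcgr1 and Fcgr4, the members with the lowest levels relative to Untreated in macrophage- or monocyte-like cells, are shown as the 250 bases before the RefSeq start (GRCm38.p6), read 5′ to 3′ on the gene's strand, at chr3:96293970-96294219 (minus strand) and chr1:171018676-171018925 (plus strand). Capitals mark matches, on either strand, to a gamma-interferon activation site (GAS, TTCNNNGAA) and a PU.1 core (GAGGAA) in Fcgr1, and to an interferon-stimulated response element core (ISRE core, GAAA and again GAAA with 2 bases of any kind between them) and a PU.1 core in Fcgr4.
Fcgr1 promoter: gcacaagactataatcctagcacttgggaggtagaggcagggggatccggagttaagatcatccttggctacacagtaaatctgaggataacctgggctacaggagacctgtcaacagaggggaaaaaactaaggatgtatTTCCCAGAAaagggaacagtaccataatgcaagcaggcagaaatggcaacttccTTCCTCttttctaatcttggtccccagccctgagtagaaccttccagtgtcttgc
Fcgr4 promoter: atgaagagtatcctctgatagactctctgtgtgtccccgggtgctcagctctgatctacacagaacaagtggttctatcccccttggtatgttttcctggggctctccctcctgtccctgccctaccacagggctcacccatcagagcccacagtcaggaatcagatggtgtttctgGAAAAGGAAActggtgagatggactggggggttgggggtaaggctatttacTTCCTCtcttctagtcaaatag
The GAS match of Fcgr1 began 109 bases before the start, and 7.02% of 32851 promoters of this length held one. The ISRE core of Fcgr4 began 73 bases before the start, and 2.98% of promoters held one. PU.1 cores were found in 23.3% of promoters, among them those of Fcgr1, Fcgr3 and Fcgr4. A match is a run of letters and was not tested for binding.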

How the data were processed

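Single cells sorted for CD45 from 4 groups of KPC tumors were sequenced with a 5′ droplet kit. Per the labels, the authors made the deposited matrix of UMI counts with Cell Ranger 7.1.0 on mm10, all 4 libraries in 1 table of 24839 barcodes; the barcode ending gave the sample. The counts were not normalized and no cell annotation was used. Cells with 300 to 5000 genes and at most 6% mitochondrial UMIs were kept, as in the study. Clusters came from 2000 variable genes, without Fc receptor and V(D)J genes, 30 principal components, 20 neighbours and Leiden resolution 1 (leidenalg 0.10.2), and were named from fixed markers; a cluster with more markers of another class than of its own among its 10 leading genes stayed unnamed. Doublets were scored with Scrublet (Scanpy 1.11.5) and left in, and leaving them out was an alternative. UMIs were summed per class and library, scaled to CPM, and compared as log2(CPM + 10), with exact Poisson and binomial intervals from scipy 1.17.1 at the 95% level. A gene was called at 1.5-fold or more with at least 50 UMIs in 1 library. Scripts were tested on simulated data. Named were all 5 members, signalling and other Fc receptor genes called after the combination in macrophage- or monocyte-like, neutrophil-like or NK-like cells, and the 3 genes most like each member, of which 1 is not reported here; Cd247 and Lat, and clusters, were named after their values were seen. The members and lists were chosen with earlier results of these data known. Alternatives covered the pseudocount, scaling, cell filters, clustering and thinning to 1000 UMIs.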

Additional observations from a re-analysis of the deposited data

How the results depend on the processing

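With 1 library per group, library and treatment cannot be told apart, and no paired analysis was possible because each group had 1 library. In macrophage- or monocyte-like cells, the log2 ratios of all 5 members after the combination, and of Fcgr4 after LTbR agonist, kept their direction under 14 of 14 alternatives, 3 of them added after seeing the data. In the order Fcgr1, Fcgr2b, Fcgr3, Fcgr4 and Fcer1g after the combination, then Fcgr4 after LTbR agonist, averaging within clusters gave -0.55, -0.31, -0.41, -0.70, -0.24 and -0.85, and classes at Leiden resolution 2, with 70.9% to 79.2% of the cells, gave -1.01, -0.80, -0.73, -1.17, -0.46 and -1.23. Leaving out cells with at least 2 markers of another class, which kept only 15.2% to 36.0% of these cells, gave -1.27 for Fcgr1, -0.76 for Fcgr2b, -0.78 for Fcgr3, -0.33 for Fcer1g and -1.01 for Fcgr4 after LTbR agonist. Thinning gave -1.11, -0.76, -0.66 and -0.42, and the mean of each cell's CPM -1.12, -0.75, -0.68 and -0.43, for Fcgr1, Fcgr2b, Fcgr3 and Fcer1g. A pseudocount of 50 gave -0.83 for Fcgr1, -0.90 for Fcgr4 and -0.94 for Fcgr4 after LTbR agonist, and median-of-ratios size factors gave -0.64 for Fcgr2b and -0.43 for Fcer1g. Members called lower after LTbR agonist numbered 2 to 4 under 5 alternatives, against 1. The log2 activating to inhibitory ratio after the combination against Untreated was -0.17, and -0.11 both at resolution 2 and thinned. After STING agonist it turned to -0.093 in the 15.2% to 36.0% of cells kept by the marker filter.

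In neutrophil-like cells after STING agonist, leaving out mixed cells turned Fcgr2b to 0.20 and Fcgr1 to 0.49, and thinning gave -0.40 for Fcgr2b. The log2 activating to inhibitory ratio, 1.45, was 0.40 without mixed cells and 0.92 over all barcodes. Fcgr3 ran from 0.46 to 0.82 and passed 1.5-fold in 9 of 12 alternatives. Fcer1g in NK-like cells after the combination was 0.094 over all barcodes, 0.38 thinned and 0.32 by the mean of each cell's CPM. In B-like cells thinning gave -1.07 for Fcgr2b after the combination, and Fcer1g after STING agonist turned to 1.94 without mixed cells (13 cells) and 0.16 over all barcodes (23 cells). Size factors shifted all genes by 0.09 at most on the log2 scale, except in B-like cells (-0.13 to -0.19). The causes were not tested.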
